A study of Homo sapiens with 6 samples.

Results

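The matrix metalloproteinases (MMPs) and their tissue inhibitors (TIMPs) were followed through the formation of polyploid giant cancer cells (PGCCs) and their daughter cells in Hey and SKOV3, a pair of established human ovarian cancer cell lines. The members were the 10 gene symbols MMP1, MMP2, MMP3, MMP7, MMP9, MMP10, MMP13, MMP14, TIMP1 and TIMP2, out of 59008 symbols in the expression table and 28 MMP and TIMP genes there. They were picked by name with their levels in these libraries already known, so every level and change given for them is a description and none was tested.

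Total RNA was sequenced from 6 cultures, 1 library for each of the 3 states of each line. Parental cells of both lines were untreated. PGCCs had received 500 nM paclitaxel, a microtubule-stabilizing drug that arrests cells in mitosis, for 16 h and had then recovered in drug-free medium. The treatment labels of the PGCC libraries give 3 days of recovery, as do the study's methods, while the title of the SKOV3 PGCC library gives day 7. Daughter cells, the smaller cells that bud from PGCCs, had the same exposure and 30 days of recovery, and each daughter library is labelled as clone 1 of its line, so it stands for 1 clone. Levels are in transcripts per 1000000 (TPM), which is scaled for transcript length and for the total of the library. With 1 library per condition no value has a replicate error, and within these libraries a comparison can be repeated only in the other line. The study also measured selected genes in both lines by quantitative RT-PCR. Its primer list holds MMP1, MMP3 and MMP9 of the members, and those measurements are not used here.

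MMPs are zinc-dependent endopeptidases that cut the proteins of the extracellular matrix. They are made as inactive proenzymes, are activated by removal of the propeptide, often by plasmin or by another MMP, and are blocked by TIMPs. In ovarian cancer they are studied for their part in invasion through the peritoneal surface and in the remodelling of stroma. RNA levels do not show how much of an enzyme was secreted or active.

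The catalytic core is common to all 8 member MMPs and is shown so that the genes can be compared as sequence. The 33 coding bases of the zinc-binding motif were read from the transcripts of GENCODE release 44 on GRCh38, with the codons of the zinc-binding histidines and of the catalytic glutamate in capitals, 5′ to 3′.
MMP1 exon 5, chr11:102795549-102795581, minus strand: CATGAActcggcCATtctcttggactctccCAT
MMP13 exon 5, chr11:102952115-102952147, minus strand: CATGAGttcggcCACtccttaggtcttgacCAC
MMP3 exon 5, chr11:102840535-102840567, minus strand: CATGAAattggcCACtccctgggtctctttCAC
MMP10 exon 5, chr11:102776718-102776750, minus strand: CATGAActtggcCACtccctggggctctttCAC
MMP7 exon 5, chr11:102523343-102523375, minus strand: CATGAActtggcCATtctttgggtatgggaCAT
MMP2 exon 8, chr16:55491827-55491859, plus strand: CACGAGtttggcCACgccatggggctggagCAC
MMP9 exon 8, chr20:46012453-46012485, plus strand: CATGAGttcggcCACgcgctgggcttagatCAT
MMP14 exon 5, chr14:22843283-22843315, plus strand: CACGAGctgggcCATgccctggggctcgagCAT
MMP3 and MMP10 differed at 2 of the 33 bases, the fewest of any pair, whereas MMP1 and MMP2 differed at 15, the most. MMP1, MMP3, MMP7, MMP10 and MMP13 lie in 1 cluster of 9 MMP genes on chromosome 11, at chr11:102520508-102955732, and all 9 genes are on the minus strand.

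MMP3 and MMP10 also share an identical stretch of 96 coding bases in exon 3 of each gene (minus strand, chr11:102842434-102842529 in MMP3 and chr11:102779216-102779311 in MMP10). It is shown because a short read that falls inside it cannot be assigned to 1 of these genes.
MMP3 and MMP10 exon 3: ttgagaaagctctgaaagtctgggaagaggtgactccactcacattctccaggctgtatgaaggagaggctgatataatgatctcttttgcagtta
Of the 31-base words in their transcripts, 6.91% for MMP3 and 7.11% for MMP10 also occurred in another gene. Reads of MMP1 and MMP9 can be shared with antisense genes, since WTAPP1 covers 8.14% of the exon bases of MMP1 and SLC12A5-AS1 covers 18.4% of those of MMP9, and no strand setting is given in the sources used here. WTAPP1 reached at most 0.394 TPM in any library. SLC12A5-AS1 had 0.177, 0.514 and 0.528 TPM in Hey parental cells, PGCCs and daughter cells, and its part in the MMP9 values was not tested. For TIMP2, 9.33% of the 31-base words and for MMP9 13.8% also occurred in another gene, and an unnamed gene on the opposite strand, ENSG00000267601, covers 5.91% of the exon bases of TIMP2.

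Promoter sequence was found in the RefSeq table (GRCh38.p14) for 4 of the 10 members. The 100 bases before the RefSeq start are shown, 5′ to 3′ on the strand of the gene, because these genes followed different courses through the states. Capitals mark the AP-1 site TGAGTCA, the TATA box TATAAA or the GC box GGGCGG, each searched on both strands.
MMP7 chr11:102530748-102530847, minus strand: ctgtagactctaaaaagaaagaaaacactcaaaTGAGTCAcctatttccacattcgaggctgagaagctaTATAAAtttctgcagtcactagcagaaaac
MMP10 chr11:102780629-102780728, minus strand: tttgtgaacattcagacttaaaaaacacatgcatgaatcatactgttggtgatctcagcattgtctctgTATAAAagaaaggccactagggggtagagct
MMP14 chr14:22836485-22836584, plus strand: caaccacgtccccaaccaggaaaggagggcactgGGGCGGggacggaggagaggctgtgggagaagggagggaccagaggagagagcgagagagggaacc
TIMP1 chrX:47582336-47582435, plus strand: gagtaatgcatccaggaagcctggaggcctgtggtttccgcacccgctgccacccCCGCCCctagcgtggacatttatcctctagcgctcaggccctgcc
MMP7 held an AP-1 site at -67 and a TATA box at -30, counted back from the start. MMP10 held a TATA box at -31. MMP14 held a GC box at -66. TIMP1 held one at -45 on the opposite strand, so the strand shown reads CCGCCC there. Among 35116 promoters of this length, 1.94% held the AP-1 letters, 4.99% the TATA letters and 31.3% the GC box letters. A match describes the letters only.

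**Figure D1:**
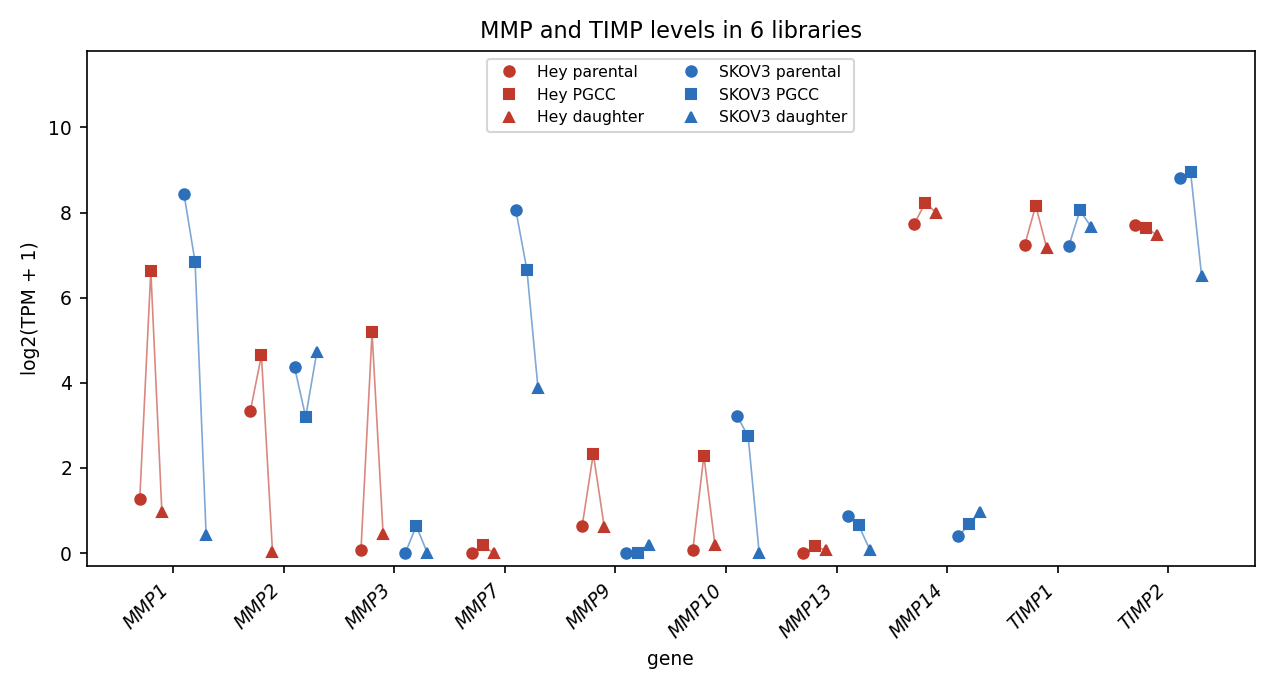
Levels of the 10 members in the 6 libraries on the log2(TPM + 1) scale, with Hey in red and SKOV3 in blue, and parental cells, PGCCs and daughter cells as circles, squares and triangles joined by a line. MMP1, MMP3, MMP9 and MMP10 peak in Hey PGCCs, MMP1, MMP7 and MMP10 step down through the SKOV3 states, and MMP14 separates the lines in every state.

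Within a line, the widest range belonged to MMP1, the interstitial collagenase, which cleaves fibrillar collagens. In Hey it stood at 1.41 TPM in parental cells, 98.1 TPM in PGCCs and 0.951 TPM in daughter cells. In SKOV3 it stood at 344 TPM in parental cells, 114 TPM in PGCCs and 0.342 TPM in daughter cells. The lines started far apart, met at a similar level in PGCCs and were both at their lowest in daughter cells. PGCCs had 69.4-fold more MMP1 than parental cells in Hey and 3.02-fold less in SKOV3. On the log2(TPM + 1) scale, on which all differences below are given, these changes were 5.36 and -1.59. Daughter cells fell below PGCCs by 5.67 in Hey and by 6.42 in SKOV3.

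The SKOV3 PGCC library stood apart in GC content. Between SKOV3 PGCCs and parental cells the difference of a gene went with its GC content, with a Spearman correlation of 0.72 across 13468 genes, against -0.044 in Hey. It was -0.46 between SKOV3 daughter cells and PGCCs and -0.37 between Hey and SKOV3 PGCCs, which use the same library, and genes are not independent points. With a GC and length trend removed, the SKOV3 PGCC minus parental differences were -1.27 for MMP1, -1.65 for MMP2 and -1.09 for MMP7, all still past -1.

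MMP13, the other collagenase among the members, stayed below 1 TPM throughout. Its highest level was 0.823 TPM, in SKOV3 parental cells, and it was listed at 0 in Hey parental cells. No difference of MMP13 reached 1.

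The stromelysins MMP3 and MMP10 degrade proteoglycans and other non-fibrillar matrix and can activate other MMPs. In Hey, MMP3 had 0.0553 TPM in parental cells, 35.3 TPM in PGCCs and 0.356 TPM in daughter cells. In SKOV3 it was listed at 0 in parental and daughter cells and had 0.555 TPM in PGCCs. Hey PGCCs were thus the single library with MMP3 above 1 TPM, higher than Hey parental cells by 5.10, and daughter cells fell by 4.74 from there.

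MMP10 had 0.0576 TPM in Hey parental cells, 3.87 TPM in Hey PGCCs and 0.142 TPM in Hey daughter cells. In SKOV3 it had 8.31 TPM in parental cells and 5.70 TPM in PGCCs and was listed at 0 in daughter cells. It was above 1 TPM in PGCCs of both lines and in SKOV3 parental cells, and below 1 TPM in the other 3 libraries. The PGCC minus parental difference was 2.20 in Hey and -0.47 in SKOV3, and the daughter minus PGCC difference was -2.09 in Hey and -2.74 in SKOV3.

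MMP7, or matrilysin, is a small epithelial MMP that lacks the hemopexin domain of the other member MMPs. It had 265 TPM in SKOV3 parental cells, 99.7 TPM in SKOV3 PGCCs and 13.7 TPM in SKOV3 daughter cells. In Hey it was listed at 0 in parental and daughter cells and had 0.137 TPM in PGCCs. MMP7 was therefore a transcript of SKOV3, lower at each later state: PGCCs lay below parental cells by a difference of -1.40, and daughter cells below PGCCs by a difference of -2.78.

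The gelatinases MMP2 and MMP9 cut denatured collagen and the collagen of basement membranes. MMP2 moved in opposite directions in the lines at both steps. In Hey it had 9.12 TPM in parental cells, 24.0 TPM in PGCCs and 0.0249 TPM in daughter cells. In SKOV3 it had 19.5 TPM in parental cells, 8.16 TPM in PGCCs and 25.3 TPM in daughter cells. PGCCs were the highest of the Hey states and the lowest of the SKOV3 states. The PGCC minus parental difference was 1.30 in Hey and -1.16 in SKOV3, and the daughter minus PGCC difference was -4.61 in Hey and 1.52 in SKOV3.

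The summed level of a list of 9 fibroblast markers moved with MMP2 in part, but different genes carried it in each line. It was 11.6, 16.6 and 3.13 TPM in Hey parental cells, PGCCs and daughter cells, and 13.2, 13.2 and 28.3 TPM in the same order in SKOV3. FAP held most of it in Hey, with 11.3, 13.0 and 2.86 TPM. In SKOV3, COL1A1 rose from 1.33 TPM in PGCCs to 16.3 TPM in daughter cells, and PDGFRB from 0.0404 to 5.35 TPM. LUM fell from 9.31 to 5.56 TPM at that step, and DCN, COL1A2 and THY1 also fell. PDGFRA stayed below 1 TPM, and FAP was listed at 0 in both. Between 1 and 3 of the 9 markers reached 1 TPM in a library, with FAP, LUM or COL1A1 the highest. COL3A1 reached at most 0.0790 TPM and was listed at 0 in 5 libraries. The part of these transcripts in the MMP2 result was not tested.

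MMP9 had 0.563 TPM in Hey parental cells, 4.04 TPM in Hey PGCCs and 0.517 TPM in Hey daughter cells, and in SKOV3 it was listed at 0 in parental cells and PGCCs and had 0.141 TPM in daughter cells. Only Hey PGCCs passed 1 TPM, with a difference of 1.69 from parental cells and of 1.73 from daughter cells.

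MMP14 is a membrane-type MMP that activates pro-MMP2 at the cell surface together with TIMP2. Hey had 209.7 TPM of it before treatment, 299 TPM at the PGCC stage and 255 TPM in daughter cells. In SKOV3 it had 0.314, 0.599 and 0.956 TPM in parental cells, PGCCs and daughter cells. The lines differed by over 7 on the log2 scale in each state, by 7.32, 7.55 and 7.03 in that order, while no step within a line reached 1. The small PGCC minus parental difference in SKOV3, 0.28, became -0.42 with the GC and length trend removed. By level, MMP14 ranked 376th of 31474 genes in Hey PGCCs and 15748th in SKOV3 PGCCs.

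Both inhibitors were abundant in all 6 libraries. TIMP1, which binds most secreted MMPs, had 149.5 TPM in parental cells, 285 TPM in PGCCs and 142 TPM in daughter cells of Hey. In SKOV3 it had 148 TPM in parental cells, 265 TPM in PGCCs and 201 TPM in daughter cells. TIMP1 was highest in PGCCs in both lines, but the PGCC minus parental differences of 0.93 and 0.83 stayed under 1, the size that corresponds to 2-fold. Without the trend in GC and length the SKOV3 difference was 0.26, and the SKOV3 daughter minus PGCC difference went from -0.39 to 0.12, so that PGCCs were no longer the highest SKOV3 state. The Hey daughter minus PGCC difference of -0.999 also stayed just under 2-fold.

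TIMP2, which inhibits MMPs and also takes part in the activation of pro-MMP2, had 207 TPM in Hey parental cells, 199 TPM in Hey PGCCs and 175 TPM in Hey daughter cells. In SKOV3 it had 447 TPM in parental cells, 494 TPM in PGCCs and 89.6 TPM in daughter cells. It was nearly level across the Hey states and low in SKOV3 daughter cells alone, where it fell below PGCCs by 2.45 and below parental cells by 2.31. The PGCC minus parental difference of TIMP2 in SKOV3, 0.15, became -0.21 without the trend in GC and length. There were 0.696 TIMP2 transcripts per TIMP1 transcript in Hey PGCCs and 1.87 in SKOV3 PGCCs, and the ratio fell from 3.02 in SKOV3 parental cells to 0.445 in SKOV3 daughter cells. The trend was not removed from these ratios.

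**Figure D2:**
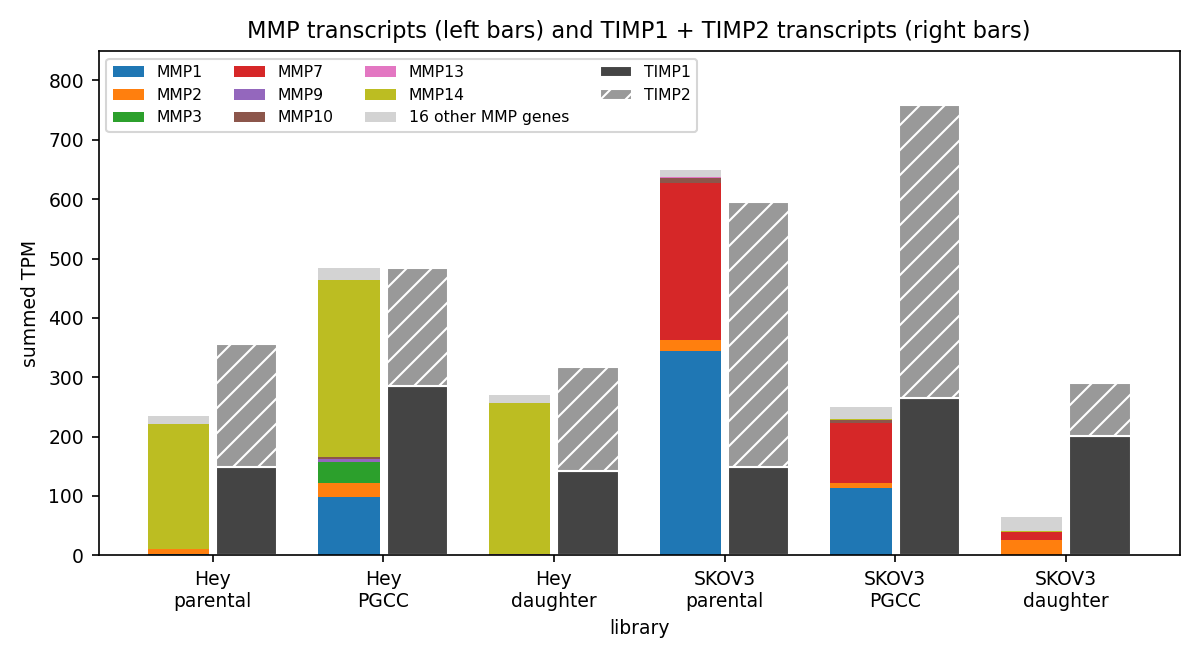
Summed TPM of the MMP transcripts (left bar of each pair, by gene, with 16 other MMP genes in light grey) and of TIMP1 and TIMP2 (right bar) in the 6 libraries. MMP14 fills most of the Hey bars, MMP1 and MMP7 fill the SKOV3 parental and PGCC bars, and the SKOV3 daughter bar is the smallest.

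Summed over the 8 member MMPs, the level was 221 TPM in Hey parental cells, 464 TPM in Hey PGCCs and 257 TPM in Hey daughter cells. In SKOV3 the sum was 637 TPM in parental cells, 229 TPM in PGCCs and 40.5 TPM in daughter cells. The MMP total was thus largest in PGCCs in Hey and in parental cells in SKOV3. Set against the sum of TIMP1 and TIMP2, there were 0.620, 0.960 and 0.809 MMP transcripts per TIMP transcript in the Hey states and 1.07, 0.302 and 0.139 in the SKOV3 states. The trend in GC and length was not removed from these sums and ratios. Without it, the SKOV3 PGCC minus parental difference went from -1.59 to -1.27 for MMP1 and from -1.40 to -1.09 for MMP7. MMP2 moved the other way, from -1.16 to -1.65. TIMP1 went from 0.83 to 0.26 and TIMP2 from 0.15 to -0.21.

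The genes that made up the MMP total differed between the lines. Of the TPM of all 24 MMP genes, MMP14 held 89.5% in untreated Hey cells, 61.7% at the Hey PGCC stage and 94.3% in the Hey daughter clone. In Hey PGCCs, MMP1 held 20.3% and MMP3 held 7.29%. In SKOV3, MMP1 and MMP7 together made up most of the total in parental cells, with 53.0% and 40.8%, and in PGCCs, with 45.6% and 40.0%. SKOV3 daughter cells had another order, with 39.2% for MMP2, 21.3% for MMP7 and 19.5% for MMP24, a membrane-type MMP that is no member.

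**Figure D3:**
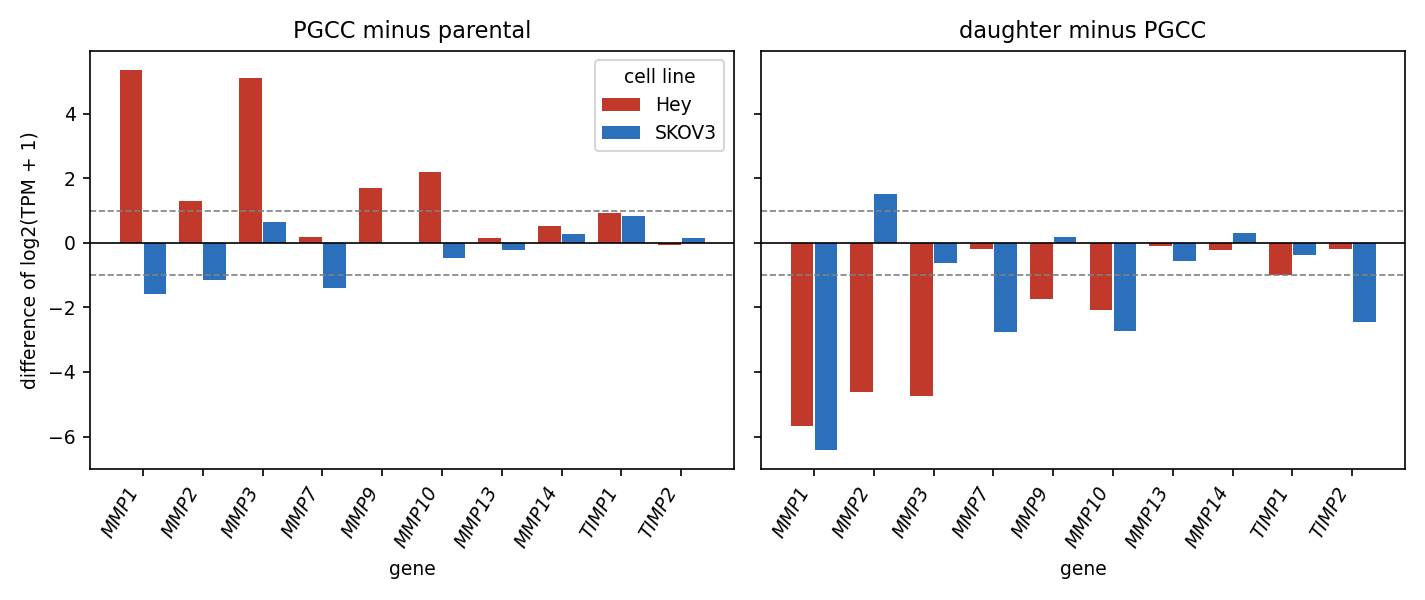
Difference of log2(TPM + 1) of each member between PGCCs and parental cells (left) and between daughter cells and PGCCs (right), with Hey in red, SKOV3 in blue and dashed lines at 1 and -1. In the left panel 5 Hey bars pass 1 and 3 SKOV3 bars pass -1, and in the right panel MMP1 and MMP10 pass -1 in both lines.

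Counting a member as changed at a difference of 1 or more in either direction, 5 of 10 members were higher and 0 were lower in Hey PGCCs than in Hey parental cells. Those higher were MMP1, MMP2, MMP3, MMP9 and MMP10. Of all 31474 genes with a TPM above 0 in some library, 4.83% were higher and 2.63% lower. In SKOV3, 0 of 10 members were higher and 3, namely MMP1, MMP2 and MMP7, were lower in PGCCs, where 5.4% of all genes were higher and 2.85% lower. The median over the 10 members was 1.12 in Hey and -0.11 in SKOV3, beside 0.028 and 0 over all genes. Because the members were chosen on these values, the counts are not evidence about MMPs as a class.

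Daughter cells and parental cells are compared with the same PGCC library, so the 2 steps are not independent. From PGCCs to daughter cells the same 5 members were lower in Hey and 0 were higher, beside 4.97% of all genes lower and 5.18% higher. In SKOV3, MMP1, MMP7, MMP10 and TIMP2 were lower and MMP2 was higher, beside 5.23% lower and 9.01% higher. MMP1 and MMP10 were the members past 1 in the same direction in both lines at a step. The median over the members was -1.37 in Hey and -0.61 in SKOV3, and over all genes it was 0 in both.

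Against parental cells, Hey daughter cells had MMP2 lower, by 3.30, and no other member past 1. Over all genes 2.02% were lower and 3.7% higher. The other 9 members differed by less than 1. SKOV3 daughter cells had lower MMP1, MMP7, MMP10 and TIMP2, with differences of -8.01, -4.18, -3.22 and -2.31, and 0 members higher, while 3.67% of all genes were lower and 9.57% higher.

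Between the lines, Hey parental cells had MMP14 higher than SKOV3 parental cells, and MMP1, MMP2, MMP7, MMP10 and TIMP2 lower, with 5.91% of all genes higher and 12.9% lower. In PGCCs, MMP2, MMP3, MMP9 and MMP14 were higher in Hey, and MMP7 and TIMP2 were lower, with 7.77% and 15.4% of all genes. In daughter cells MMP14 was higher in Hey and MMP2 and MMP7 were lower, with 6.7% and 17.4% of all genes. The calls for MMP2 and TIMP2 in parental cells, at -1.02 and -1.11, ended at -0.81 and -0.88 when libraries were scaled by their median ratio, and TIMP2 in PGCCs, at -1.31, ended at -0.98. MMP1 was the member whose line difference shrank most at the PGCC stage, from -7.16 in parental cells to -0.21.

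**Figure D4:**
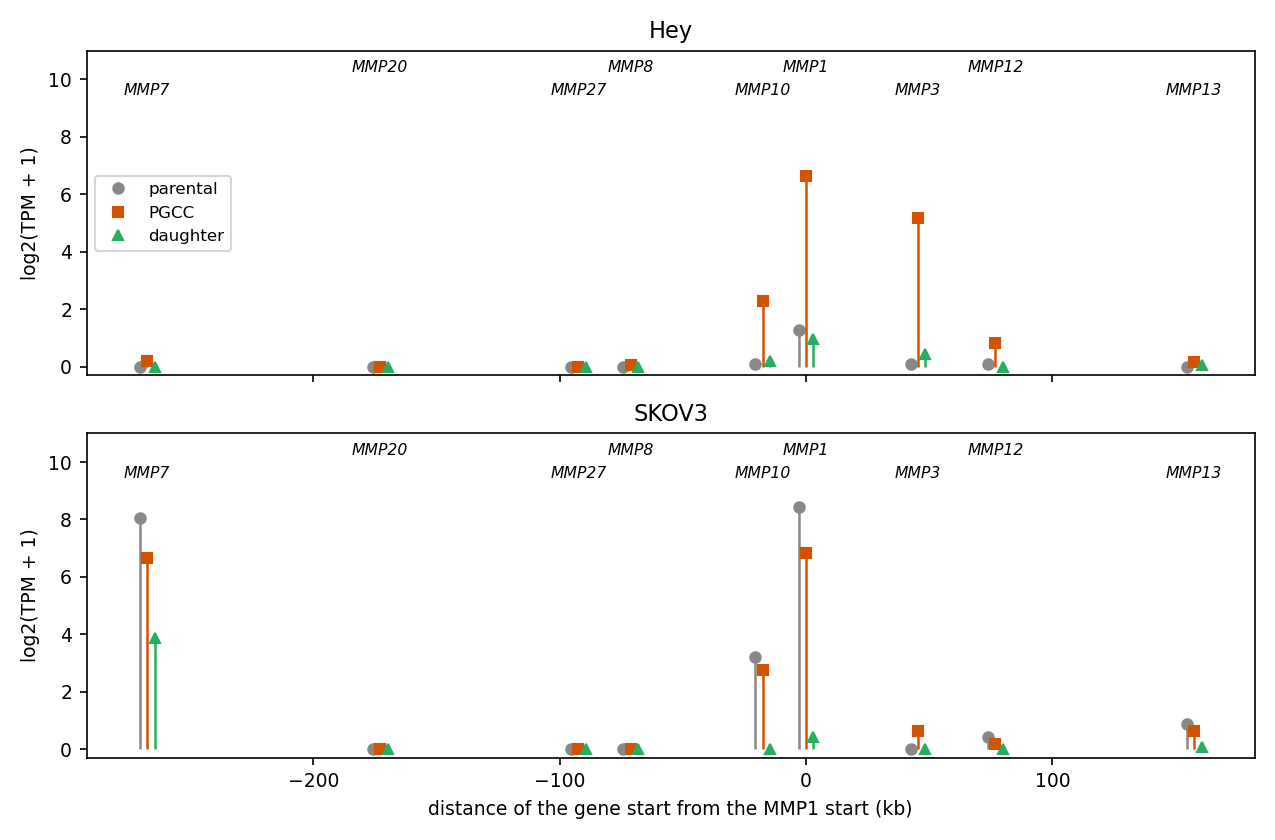
Levels of the 9 MMP genes of the chromosome 11 cluster as log2(TPM + 1), against the distance of each gene start from the MMP1 start in kb, for Hey (top) and SKOV3 (bottom), with parental cells, PGCCs and daughter cells in grey, orange and green. In Hey the signal lies at MMP10, MMP1 and MMP3 in PGCCs, and in SKOV3 at MMP7, MMP10 and MMP1 in parental cells and PGCCs.

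Along the chromosome 11 cluster, which spans 435 kb, the summed level was 1.58 TPM in Hey parental cells, 138 TPM in Hey PGCCs and 1.496 TPM in Hey daughter cells. In SKOV3 it was 618, 220 and 14.1 TPM in the same order. MMP10, MMP1 and MMP3 are neighbours, with the start of MMP10 at -17.5 kb and that of MMP3 at 45.4 kb from the start of MMP1, and were the cluster genes above 1 TPM in Hey PGCCs. In SKOV3 PGCCs the genes above 1 TPM were MMP7, MMP10 and MMP1. MMP12, the macrophage elastase, reached at most 0.750 TPM, in Hey PGCCs, and 5 of the 9 genes stayed below 1 TPM in all 6 libraries.

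**Figure D5:**
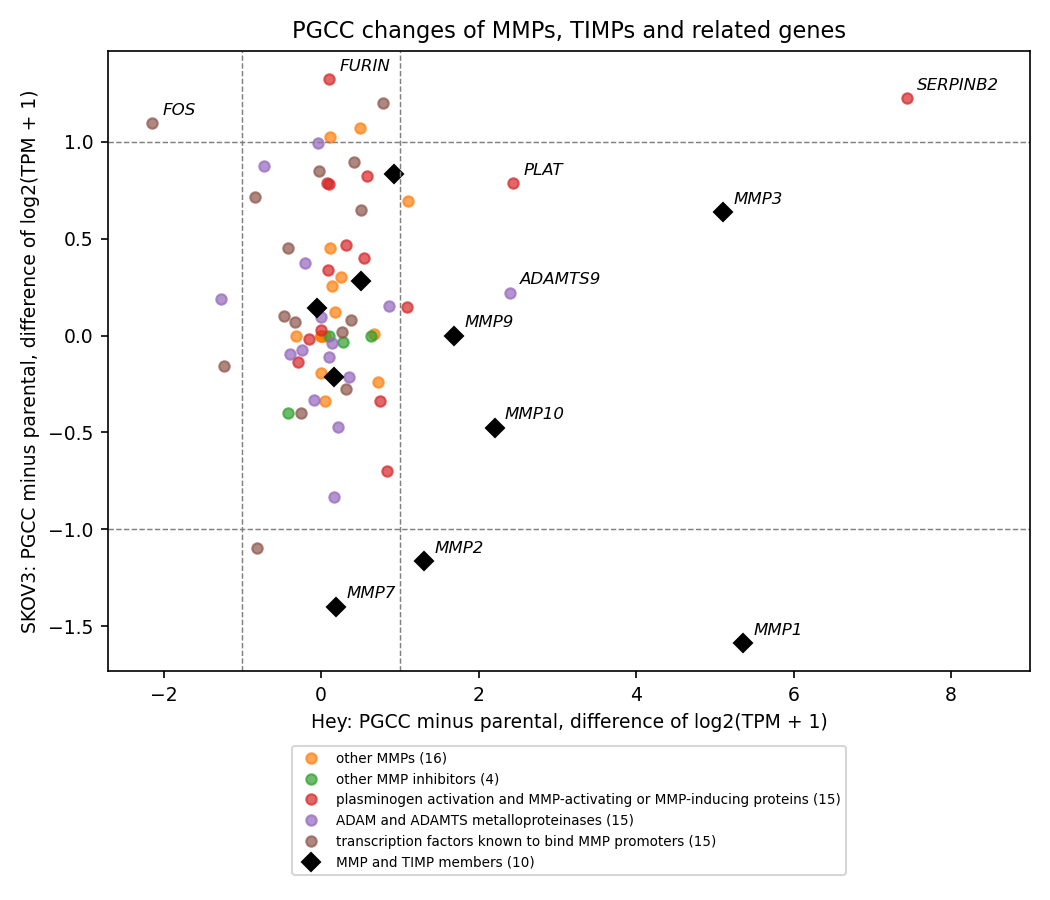
PGCC minus parental difference of log2(TPM + 1) in Hey (horizontal) and SKOV3 (vertical) for the members (black diamonds) and the genes of 5 related lists (coloured points, list sizes in the key), with dashed lines at 1 and -1. SERPINB2 is the one listed gene past 1 in both lines, and MMP1 and MMP2 lie past 1 in Hey and past -1 in SKOV3.

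Of 16 other MMP genes, 6 reached 1 TPM in some library. In Hey PGCCs 1 of the 16, MMP19, was higher than in parental cells, by 1.11, and in SKOV3 PGCCs 2 were higher, MMP15 by 1.07 and MMP24 by 1.03. None was lower. These counts stand beside 4.83% and 5.4% of all genes higher. Once the GC and length trend was taken out, the SKOV3 differences were 0.019 for MMP15 and 0.20 for MMP24, so both calls ended, and no such value could be computed for MMP19. MMP24 had 1.42 TPM in SKOV3 parental cells, 3.92 TPM in PGCCs and 12.6 TPM in daughter cells, and stayed below 1 TPM in Hey. MMP16, another membrane-type MMP, had 11.7, 14.2 and 9.22 TPM in the Hey states and 2.77, 3.65 and 2.53 TPM in the SKOV3 states. MMP28 had 2.95, 2.45 and 0.0887 TPM in the SKOV3 states and was listed at 0 in Hey.

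Of 4 other MMP inhibitors, 0 passed 1 between PGCCs and parental cells in either line. Among the genes that averaged at least 1 TPM, 7.67% were higher and 5.22% lower in Hey PGCCs, and 9.94% and 4.96% in SKOV3 PGCCs. TIMP3, a matrix-bound inhibitor, had 7.16 TPM in Hey parental cells, 8.95 TPM in Hey PGCCs and 0.0598 TPM in Hey daughter cells. In SKOV3 it had 0.250, 0.223 and 3.24 TPM. Like MMP2, TIMP3 was therefore lower in Hey daughter cells and higher in SKOV3 daughter cells than in the PGCCs of the line. TIMP4 was found in Hey, at 2.43, 4.32 and 6.38 TPM, and was listed at 0 in SKOV3. RECK, a membrane-anchored inhibitor, lay between 7.41 and 21.8 TPM.

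Of 15 genes of plasminogen activation and of proteins that activate or induce MMPs, 3 were higher in Hey PGCCs than in parental cells, 2 were higher in SKOV3 PGCCs, and none was lower in either. Of the 15, 14 reached 1 TPM in some library, and among the 14988 genes that averaged at least 1 TPM, 7.67% were higher in Hey PGCCs and 9.94% in SKOV3 PGCCs. SERPINB2, an inhibitor of plasminogen activators, was higher in both, with 1.32 TPM in Hey parental cells, 402 TPM in Hey PGCCs and 1.46 TPM in Hey daughter cells, and with 0.542, 2.61 and 2.28 TPM in SKOV3. Its PGCC difference was 7.44 in Hey and 1.23 in SKOV3, and 7.35 and 1.70 without the GC and length trend. PLAT, the tissue plasminogen activator, had 22.6, 126 and 9.39 TPM in the Hey states and 16.1, 28.5 and 12.4 TPM in the SKOV3 states, and was lower in daughter cells than in PGCCs in both lines. CTSL, a cathepsin, was higher in Hey PGCCs by 1.09, and FURIN, a convertase that activates membrane-type MMPs, was higher in SKOV3 PGCCs by 1.33. Without the trend CTSL was at 0.996 and FURIN at 0.43, both under 1. PLAU, the urokinase that generates plasmin, did not pass 1 in either line and stood at 855 to 1246 TPM in Hey parental cells and PGCCs. From PGCCs to daughter cells, 2 of the 15 were lower and 0 higher in Hey, and 4 were lower and 1 higher in SKOV3. Of the genes that averaged at least 1 TPM, 8.13% were lower and 9.95% higher at that step in Hey, and 9.25% and 14.6% in SKOV3.

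Of 15 transcription factors known to bind MMP promoters, 0 were higher and 2 lower in Hey PGCCs than in parental cells, and 2 were higher and 1 lower in SKOV3 PGCCs. Beside them, 7.67% of the genes that averaged at least 1 TPM were higher and 5.22% lower in Hey PGCCs, and 9.94% and 4.96% in SKOV3 PGCCs. All 3 SKOV3 calls ended with the GC and length trend removed, where FOS was at 0.87, JUNB at 0.24 and ETV1 at -0.59. FOS, an AP-1 subunit, had 52.5, 11.1 and 19.4 TPM in the Hey states and 65.4, 141 and 67.5 TPM in the SKOV3 states. Its PGCC difference was -2.15 in Hey and 1.10 in SKOV3. FOSB was lower in Hey PGCCs by a difference of -1.23, and ETV1, an ETS factor, in SKOV3 PGCCs by a difference of -1.09. JUNB, another AP-1 subunit, had 12.0, 21.5 and 2.42 TPM in Hey and 29.4, 68.9 and 10.7 TPM in SKOV3. JUNB was lower in daughter cells than in PGCCs by 2.71 in Hey and by 2.58 in SKOV3.

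The genes whose course over the 6 libraries lay nearest to that of a member were found by the root mean square distance between profiles of log2(TPM + 1), each centred on its own mean, among the 14988 genes whose mean level was 1 TPM or more. The points share their lines, so nearness in profile is a description over 6 libraries. For MMP1 the nearest was SERPINB5, at a distance of 1.16, with 0.791, 9.504 and 0.265 TPM in the Hey states and 72.3, 40.7 and 0.546 TPM in the SKOV3 states. SPANXB1 and SPANXA2 followed at 1.16 and 1.45, but their reads are shared among near-identical copies. For MMP14 the nearest was PDPN, which encodes podoplanin, at 0.254, with 177, 198 and 154 TPM in Hey and at most 0.0884 TPM in SKOV3. IGFBP4 and CR381670.2 came next, at 0.318 and 0.353.

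For MMP2 the nearest were SNHG14, SPP1 and ZNF558, at 0.389, 0.424 and 0.549. SPP1, which encodes osteopontin, had 54.7, 188 and 9.68 TPM in the Hey states and 105, 103 and 181 TPM in the SKOV3 states. For MMP7 the nearest were AC105460.1, MFAP5 and AMTN, at 0.576, 0.781 and 0.874, and MFAP5, a microfibril protein, had 170, 112 and 39.4 TPM in SKOV3 and at most 2.40 TPM in Hey. For MMP10 they were COX5BP6, LINC01629 and KLHDC8B, and for MMP9 they were AC013268.1, LINC01537 and AC016831.6. For TIMP2 they were SIK1B, DUSP10 and ZNF530, at 0.206, 0.283 and 0.285. The 3 nearest to MMP3, AC006064.4, MIR138-1 and RNU6-892P, were listed at 0 in 5 libraries and had 29.8, 30.9 and 30.9 TPM in Hey PGCCs. MIR138-1 and RNU6-892P had the same value there, 30.8593 TPM, and nearness to MMP3 rests on that 1 library.

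The 6 libraries also differed in other ways, some between the states and some between the lines. A list of 3 proliferation genes summed to 525, 103 and 699 TPM in the Hey states and to 1349, 668 and 714 TPM in the SKOV3 states. Mitochondrial genes held between 2.64% and 14.8% of the TPM. ERBB2 stood at 1127 to 1778 TPM in SKOV3 and at 8.20 to 14.1 TPM in Hey. PAX8 and the keratins KRT7, KRT8 and KRT18 were above 50 TPM in all 6 libraries. Another keratin, KRT19, had 2.47, 3.60 and 0 TPM in the Hey states and 292, 711 and 80.2 TPM in the SKOV3 states. WT1 lay between 0.530 and 4.10 TPM. EPCAM, CDH1 and MUC16 were below 1.5 TPM in Hey. In SKOV3 parental cells, PGCCs and daughter cells, EPCAM had 68.8, 43.6 and 8.15 TPM, and CDH1 had 1.47, 4.35 and 8.35 TPM. MUC16 reached at most 1.59 TPM in SKOV3. Among leukocyte markers, CD3E and MS4A1 were listed at 0 throughout and PTPRC reached at most 0.425 TPM, while CD68 reached 69.3 TPM, in Hey PGCCs, and stood at 0.840 TPM in SKOV3 daughter cells. Of 4 endothelial markers 1 reached 1 TPM, CDH5, with 33.2 to 48.5 TPM in Hey and 0 to 2.56 TPM in SKOV3, so it separated the lines in the direction that MMP14 did, and PECAM1 reached at most 0.272 TPM. The part of these transcripts in the member values was not tested. In bulk RNA fewer cells of a type and less RNA per cell cannot be told apart.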

How the data were processed

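Total RNA of 6 cultures was sequenced, with 1 library for each state of each line, and samples were grouped by their labels. The authors used salmon v0.14.1 to quantify reads against human transcripts (hg38), per the methods, and the submitters' processing notes also name fastp. The authors deposited TPM values, 1 per gene symbol and library. How transcripts were summed to symbols, the annotation release and the bias options are not given in the sources used here. The columns sum to between 911825 and 920497, short of 1000000, so the table does not hold every quantified transcript. The methods report summed mapped counts that were similar for all samples. TPM carries no counts per gene, so the reads behind a single value are not listed and no counting interval is given. A value listed at 0 can be a failed estimate.

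Differences were taken as log2(TPM + 1) of 1 library minus another, for all 31474 genes above 0 in some library, and were called at 1 (2-fold). The scale understates changes of low genes. There was no test, since each condition has 1 library. The steps were tested on simulated data. The alternatives were a pseudocount of 0.1, a filter at a mean TPM of 1, median ratio scaling, mitochondrial genes left out, and removal of a trend with GC content and length by lowess (fraction 0.3, 2 passes).

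The members and gene lists were chosen with earlier results of these data known. Named from the lists were genes past 2-fold in the same direction in both lines, and up to 4 per list with the largest PGCC minus parental difference among genes reaching 1 TPM. Further genes were named after their values were seen, among them PLAU, MMP16, MMP28 and, for its course, TIMP3. Likeness was computed for members with a range of at least 2 on the log2 scale, and the 3 nearest genes were named. Positions and coding sequence are from GENCODE release 44 on GRCh38, and promoters from RefSeq. Python 3.11.15, numpy 2.4.6, pandas 2.3.3, scipy 1.17.1, statsmodels 0.14.6 and matplotlib 3.10.9 were used.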

Additional observations from a re-analysis of the deposited data

Results flagged for a closer look

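The change of 2 members pointed in opposite directions in the lines, with the 1 library of each state past 2-fold either way. None of these differences was tested, because each condition has 1 library, and the label conflict over the recovery day of the SKOV3 PGCC library touches all 3.

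From parental cells to PGCCs, the change of MMP1 was 5.36 in Hey and -1.59 in SKOV3 on the log2(TPM + 1) scale, a difference between the lines of 6.95. At the same step that of MMP2 was 1.30 in Hey and -1.16 in SKOV3, a difference of 2.47. From PGCCs to daughter cells, it was -4.61 for MMP2 in Hey and 1.52 in SKOV3, a difference of -6.13.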

How the results depend on the processing

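Of 90 member differences, 38 were called, and under 5 alternatives 383 of 414 values stayed on their side of the limit. The filter at a mean TPM of 1 only drops genes, so its 72 values could not move and are no sign of stability. No called difference changed sign, but 10 values under the limit did, 4 of them with the GC and length trend removed. Neither a test paired by line nor a fit with line and state as terms was run, since the members were chosen on these values. With a pseudocount of 0.1 more low members were called in both directions. Higher were 7 in Hey PGCCs against parental cells (5 in the report), 1 in SKOV3 PGCCs against parental cells (0 in the report), 2 in SKOV3 daughter cells against PGCCs (1), 1 in Hey daughter cells against parental cells (0), 2 in SKOV3 daughter cells against parental cells (0), 2 in Hey against SKOV3 parental cells (1) and 5 in Hey against SKOV3 daughter cells (1). Lower were 7 in Hey daughter cells against PGCCs (5), 6 in SKOV3 daughter cells against PGCCs (4), 5 in SKOV3 daughter cells against parental cells (4), 6 in Hey against SKOV3 parental cells (5) and 3 in Hey against SKOV3 PGCCs (2). Median ratio scaling and, separately, removal of the GC and length trend each gave 3 members lower in Hey than SKOV3 parental cells (5 in the report), 1 lower in Hey than SKOV3 PGCCs (2) and 2 higher in Hey than SKOV3 daughter cells (1). The trend could be removed for 8 members, without MMP9 and MMP13. The calls lost were MMP2 and TIMP2 between parental cells and TIMP2 between PGCCs, where TIMP2 went to -0.60 without the trend, and no call within a line was lost where a value could be computed. TIMP1 in Hey daughter cells against PGCCs passed the limit under 4 alternatives, between -1.004 and -1.15, and TIMP1 in Hey PGCCs against parental cells reached 1.09 without mitochondrial genes. Leaving out mitochondrial genes moved the median of the genes that averaged at least 1 TPM from 0 to 0.12 in that comparison.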

Other observations

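The ADAM and ADAMTS metalloproteinases, relatives of the MMPs that shed membrane proteins or cut proteoglycans, were compared as a list of 15 genes, 13 of which reached 1 TPM in some library. From parental cells to PGCCs, 1 was higher and 1 lower in Hey, and 0 passed 2-fold in SKOV3, beside 7.67% higher and 5.22% lower among the genes that averaged at least 1 TPM in Hey and 9.94% and 4.96% in SKOV3. ADAMTS9 had 1.24 TPM in Hey parental cells, 10.8 TPM in PGCCs and 1.56 TPM in daughter cells, whereas in SKOV3 it had 7.19, 8.56 and 16.1 TPM. ADAMTS1 had 366, 152 and 122 TPM in the Hey states and 70.2, 80.3 and 287 TPM in the SKOV3 states. ADAMTS15 and ADAM15 were the next by size, with PGCC minus parental differences in SKOV3 of 0.99 and 0.88.

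ADAM12 was higher in daughter cells than in PGCCs in both lines, by 1.43 in Hey and by 2.94 in SKOV3, and higher than in parental cells by 1.03 and 2.84. It had 6.66, 4.82 and 14.7 TPM in the Hey states and 1.46, 1.31 and 16.7 TPM in the SKOV3 states. In SKOV3 daughter cells, 6 of the 15 genes were higher and 1 lower than in parental cells, beside 15.1% higher and 6.34% lower among the genes that averaged at least 1 TPM. With the GC and length trend removed, ADAMTS9 and ADAMTS15 were under 2-fold there, at 0.71 and 0.98, as was ADAM12 in Hey daughter cells against parental cells, at 0.90.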
